A study of Mus musculus with 51 samples.

Results

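The regions described here are enhancer candidates of astrogliogenic neural precursor cells (aNPC) that carried H3K27ac in aNPC, had no H3K27ac peak in early (eA) or late astrocytes (lA), and had H3K4me1 peaks at each stage. They were chosen by measured values, the peaks called in the merged lists: an aNPC H3K27ac peak on chromosomes 1 to 19 was a member if it overlapped no eA and no lA H3K27ac peak and at least 1 bp of an H3K4me1 peak at all 3 stages. Of the 77553 aNPC H3K27ac peaks on these chromosomes, 11768 met the rule, which is 15.2% of the list. The absence of H3K27ac and the presence of H3K4me1 are therefore part of the choice and are given as a description. A mark is called lost below where no peak was called.

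The cells came from C57/BL-6 mouse embryonic stem cells, which were turned into aNPC and expanded with the mitogens EGF and FGF-2. Astrocyte differentiation was then induced with serum and LIF, and eA were collected after 1 day and lA after 5 days. Chromatin immunoprecipitation sequencing (ChIP-seq) for both marks was done on 2 replicates per stage, and the replicates were merged before peaks were called, so that 12 libraries stand behind 6 lists. No knockdown was applied in these libraries, and the promoters of the precursor and astrocyte marker genes were checked against H3K27ac. Of 18 genes of neural progenitor identity with an autosomal annotation, those with H3K27ac at a promoter numbered 14 at aNPC, 16 at eA and 13 at lA. Of 23 astrocyte genes they numbered 16, 17 and 16. The lists of other cells the cultures could hold gave 16, 12 and 8 of 27 proneural and early neuronal factors, 7, 8 and 5 of 17 oligodendrocyte lineage genes, 3, 3 and 2 of 13 pluripotency genes, 1, 3 and 2 of 9 mesenchymal genes, 1, 2 and 1 of 8 endothelial genes, and 0 of 7 microglia and blood genes at each stage. The part of these cells in the results was not tested. With 1 merged list per stage and mark, there is no error between cultures, the read depth behind the lists is unknown, and fewer cells with a mark cannot be told apart from less of the mark per cell.

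H3K27ac, deposited by the acetyltransferases CBP and p300, marks enhancers and promoters while they are active. H3K4me1, written by the methyltransferases MLL3 and MLL4, marks enhancers both before and during activity, and it can stay after the acetyl mark has gone. An enhancer with H3K4me1 but without H3K27ac is called primed or poised when it precedes activation, and decommissioning of an enhancer includes the removal of H3K4me1. In neural development, enhancers of progenitor and neuronal genes have to be turned off as glial genes come on.

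Sequences are shown for 6 members outside promoters, since these are the places at which the acetyl mark went and the methyl mark stayed: the 6 of the highest −log10 q, 1 for each gene, at the named genes of progenitor identity, EGF and FGF signalling, Notch signalling and early neuronal fate. Each sequence is the 200 bases of mm9 around the aNPC H3K27ac summit, read on the plus strand, and capitals mark letters of any of the 16 searched motifs on either strand. The Etv5 window (Etv5, ENSMUSG00000013089.8, an ETS transcription factor induced by FGF signalling) lies at chr16:22471485-22471684, at −32130 bp from the Etv5 start site and inside an intron of the neighbouring gene Dgkg. The Etv1 window (ENSMUSG00000004151.8, an ETS factor of the same family) lies in an intron of Etv1 at chr12:39563063-39563262. The Insm1 window (ENSMUSG00000068154.4, a zinc finger factor of neuronal precursors) lies at chr2:146117091-146117290, in an intron of Ralgapa2. The Hmga2 window (ENSMUSG00000056758.8, a chromatin protein of fetal neural stem cells) lies in an intron of Hmga2 at chr10:119814917-119815116. The Ebf1 window (ENSMUSG00000057098.7, a helix-loop-helix factor of early neurons) lies in an intron of Ebf1 at chr11:44521062-44521261. The Spred1 window (ENSMUSG00000027351.8, an inhibitor of the Ras and MAP kinase pathway) is intergenic, at −34643 bp from the Spred1 start site, and lies at chr2:116912280-116912479.
Etv5: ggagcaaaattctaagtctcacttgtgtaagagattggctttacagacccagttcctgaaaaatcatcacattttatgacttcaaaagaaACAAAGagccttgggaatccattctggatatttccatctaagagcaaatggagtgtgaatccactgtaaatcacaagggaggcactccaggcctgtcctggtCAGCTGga
Etv1: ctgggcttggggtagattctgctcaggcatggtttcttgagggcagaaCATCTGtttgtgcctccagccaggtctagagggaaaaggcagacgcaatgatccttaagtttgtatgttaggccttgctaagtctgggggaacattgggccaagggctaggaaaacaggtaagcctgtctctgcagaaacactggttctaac
Insm1: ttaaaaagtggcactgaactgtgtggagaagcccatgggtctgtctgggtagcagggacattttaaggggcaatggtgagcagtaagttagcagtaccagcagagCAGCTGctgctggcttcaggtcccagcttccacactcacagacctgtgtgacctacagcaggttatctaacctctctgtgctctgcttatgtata
Hmga2: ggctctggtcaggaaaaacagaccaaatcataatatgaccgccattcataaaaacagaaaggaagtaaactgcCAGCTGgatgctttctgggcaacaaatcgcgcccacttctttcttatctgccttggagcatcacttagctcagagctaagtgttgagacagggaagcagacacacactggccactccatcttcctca
Ebf1: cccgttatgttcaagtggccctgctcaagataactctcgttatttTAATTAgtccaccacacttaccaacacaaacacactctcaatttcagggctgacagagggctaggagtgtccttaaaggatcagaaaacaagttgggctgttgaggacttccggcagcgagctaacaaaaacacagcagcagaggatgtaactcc
Spred1: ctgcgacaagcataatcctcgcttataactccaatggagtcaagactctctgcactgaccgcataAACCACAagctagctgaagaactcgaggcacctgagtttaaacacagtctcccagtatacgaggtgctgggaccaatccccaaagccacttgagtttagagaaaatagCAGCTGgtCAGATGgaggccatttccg

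In these windows, CAGCTG, an E-box read by many helix-loop-helix proteins, stood in the Etv5, Insm1, Hmga2 and Spred1 sequences. The E-box CAGATG stood in those of Etv1 and Spred1. The SOX variant CTTTGT was found in Etv5, the LIM homeobox core TAATTA in Ebf1 and the RUNX letters TGTGGTT in Spred1. Among all members outside promoters, 13.1% of the windows held CAGCTG, 16.8% CAGATG, 18.8% CTTTGT, 4.11% TAATTA and 4.46% TGTGGTT. In the windows of the same length 5 kb to either side, the shares were 8.63%, 15.5%, 17.2%, 6.02% and 4.82%. A match of these letters describes the sequence and does not show that a factor bound there.

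The acetyl mark was absent in both later stages at 27939 of the aNPC H3K27ac peaks, 36.0% of the list. H3K4me1 was found at all 3 stages at 11768 of them (42.1%, 95% Wilson interval 41.5–42.7), the members. A further 4488 peaks (16.1%) had H3K4me1 in aNPC and eA and not in lA, and 2243 (8.03%) had it in aNPC only. At 6512 peaks (23.3%) no H3K4me1 peak was called at any stage. The remaining patterns, which skip a stage or begin after aNPC, held between 658 and 774 peaks each. Read the other way, 51597 aNPC H3K27ac peaks had H3K4me1 at each stage, and 22.8% of them were members. The intervals cover counting error over peaks only.

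**Figure D1:**
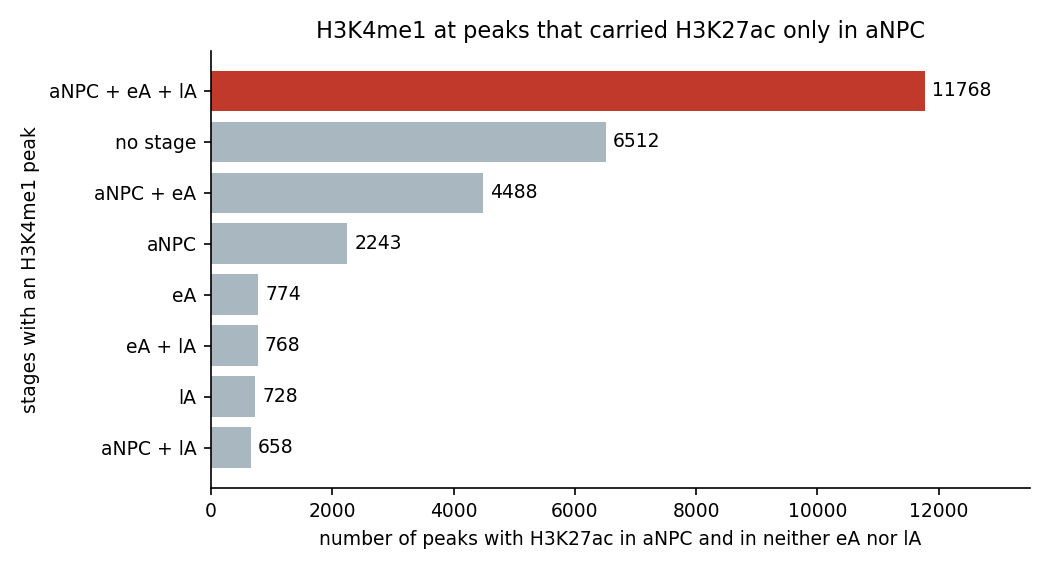
Numbers of aNPC H3K27ac peaks without H3K27ac in eA and lA, by the stages at which an H3K4me1 peak overlapped them; bars are counts in the merged lists. The members, with H3K4me1 at all stages, form the longest bar (11768 peaks), ahead of the 6512 peaks with no H3K4me1 and the 4488 that had it in aNPC and eA.

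At the edge of the rule, 358 members (3.04%) had an eA or lA H3K27ac peak within 50 bp, and in 815 (6.93%) the smallest H3K4me1 overlap was 50 bp or less. Just outside it were 417 peaks with H3K4me1 at each stage that eA or lA H3K27ac peaks covered by at most 50 bp, and 613 peaks without later H3K27ac for which the H3K4me1 peak of the 1 stage they lacked lay within 50 bp. The median distance from a member to the nearest H3K27ac peak was 8438 bp in eA (quartiles 1141 and 23454) and 7611 bp in lA (1218 and 21143). A later H3K27ac peak lay within 1 kb of 3854 members (32.7%), beside 22.1% of the peaks that lost both marks and 22.9% of those that lost H3K4me1 by lA. Whether an acetylated domain narrowed at these members was not tested. The other 7914 members (67.3%, 66.4–68.1) stood over 1 kb from H3K27ac of eA and lA. Values that changed their call among these isolated members are given beside the result.

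The members had modest H3K27ac within the aNPC list. Their median width was 342 bp (quartiles 232 and 546) against 435 bp over all aNPC peaks, and their median −log10 q of 6.86 put them at rank 36.6%, where 50% is the middle of the list and 100% the highest peak. Peaks that lost both marks after aNPC were at rank 28.6% with a width of 272 bp. The 30351 peaks that kept H3K27ac and H3K4me1 at all stages were at rank 69.2% and 667 bp wide. The members lay on every autosome, at between 13.4% of the aNPC H3K27ac peaks on chromosome 17 and 17% on chromosome 12.

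Most members were distal. Promoters, taken as the 1 kb before a coding start site and the 100 bp after it, held 378 of them (3.21%, 2.91–3.55), introns 45.9%, exons 3.04% and intergenic sequence 47.9%. The promoter share was 1.48% among the members over 1 kb from later H3K27ac, and 6.82% of all members lay within 1 kb of a start site of any gene. The peaks that kept both marks were at promoters more often, at 16.3% (odds ratio of members 0.171, adjusted p = 4.00e-300 by two-sided Fisher's exact test, from the smallest p written, 1e-300). The odds ratio was 0.0771 for the members over 1 kb from later H3K27ac and 0.364 pooled over quintiles of the aNPC H3K27ac list. The difference was −13.1 percentage points (−13.6 to −12.5), and within each quintile of the aNPC H3K27ac list the members' promoter share, between 2.53% and 5.28%, lay below that of the other class, between 4.47% and 31.0%. Against the peaks that lost both marks, at promoters in 2.76%, no difference was found (odds ratio 1.17, adjusted p = 0.291 by Fisher's exact test), and the interval of the difference ran from −0.374 to 1.14 percentage points. The 4488 peaks that lost H3K4me1 by lA were at promoters in 1.74% (1.39–2.16), an interval below that of the members, and this difference was not tested. Counted within 1 kb of a start site of any gene, the members (6.82%) exceeded the peaks that lost both marks (5.22%). The odds ratio there was 1.33 (unadjusted p = 0.00451 by Fisher's exact test). The 11390 members outside promoters lay a median of 45094 bp from the nearest coding start site, those that lost both marks 47688 bp, and those that kept both 26736 bp. These tests compare peaks within merged lists. Peaks do not stand for replicate cultures, and neighbouring peaks share a locus.

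The place of the members' H3K4me1 peaks within the list of each stage was compared with that of the peaks that kept both marks. The H3K4me1 lists differ in length, with 150527 autosomal peaks at aNPC, 181227 at eA and 203377 at lA, and their depth is unknown, so a rank gives a place in a list and not an amount of the mark, and ranks of different stages do not measure a change of it. The H3K4me1 peak at a member had a median rank of 74.5% in the aNPC list (quartiles 57.4 and 87.0), 72.5% at eA (54.6 and 86.3) and 63.6% at lA (40.4 and 81.4), ranked by −log10 q. It was above the middle of its list at 82.8% of the members at aNPC, 79.4% at eA and 65.6% at lA. The peaks that kept both marks had median ranks of 84.7%, 85.0% and 83.9%. In these, 93.1%, 91.8% and 88.7% were above the middle, more than among the members at each stage (odds ratios of members 0.356, 0.344 and 0.243, adjusted p = 3.17e-204, 4.84e-253 and 4.00e-300 by two-sided Fisher's exact test). The classes also differ in aNPC H3K27ac, at median ranks of 36.6% and 69.2%, and pooled over quintiles of that list the odds ratios were 0.477, 0.311 and 0.238. With each H3K4me1 list cut to the length of the aNPC list, the members' median ranks were 74.5%, 66.9% and 50.8% and the odds ratios 0.356, 0.349 and 0.259. Ranked by fold in place of −log10 q, the difference in eA turned (odds ratio 1.08, p = 0.00395 by Fisher's exact test), while those in aNPC and lA were smaller, at 0.908 and 0.824. Among the isolated members the median ranks were 74.1%, 70.6% and 60.1%, and among those within 1 kb of later H3K27ac they were 76.1%, 76.6% and 70.5%.

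**Figure D2:**
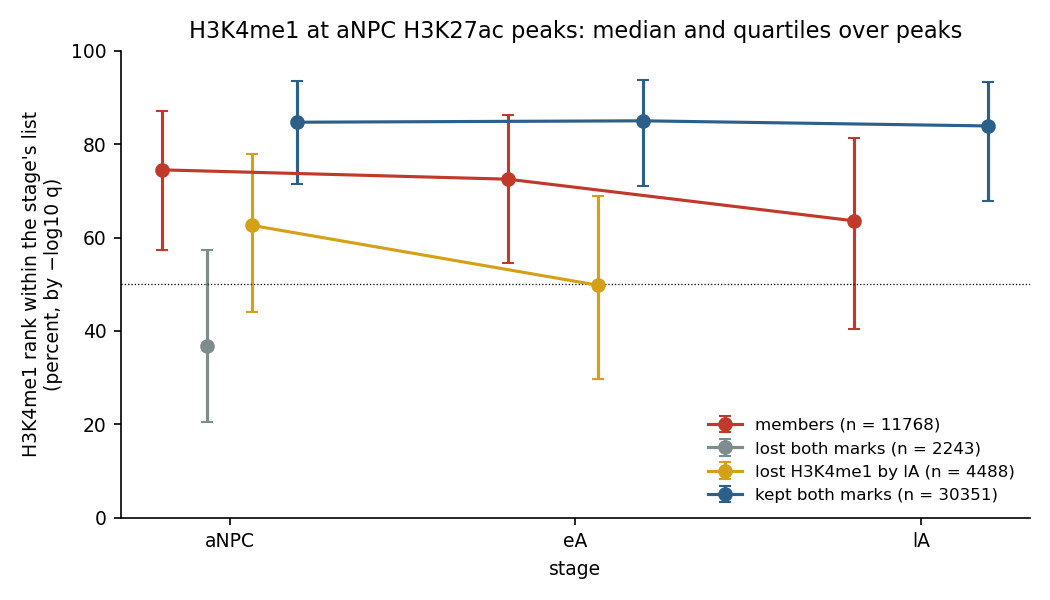
Rank of the H3K4me1 peak within the list of its stage (percent, by −log10 q; 50 is the middle of the list) at aNPC H3K27ac peaks of 4 classes; points are medians and bars quartiles over peaks. The members are at 74.5, 72.5 and 63.6 in lists of increasing length, and the peaks that kept both marks at 84.7, 85.0 and 83.9.

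Single members differed in this respect. Between the eA and lA lists, 28.6% of the members stood more than 20 percentage points lower and 11.1% more than 20 points higher, beside 12.3% and 7.52% of the peaks that kept both marks. These are differences of place in lists of unequal length, and they were not tested. The median width of the H3K4me1 peaks was 846 bp at aNPC, 806 bp at eA and 616 bp at lA, against 999, 988 and 893 bp in the class that kept both marks. H3K4me1 covered a median of 98.9% of the member's H3K27ac peak at aNPC, 96.4% at eA and 78.7% at lA. In the class that kept both marks it covered 92.0%, 90.7% and 82.9%. The aNPC H3K27ac summit lay inside an H3K4me1 peak in 90.0%, 88.2% and 76.5% of the members. For the class that kept both marks these shares were 83.0%, 81.7% and 77.1%.

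An H3K4me1 summit lay within 200 bp of the aNPC H3K27ac summit in 52.1% of the members at aNPC, 52.5% at eA and 51.5% at lA. The distance was taken to the nearest H3K4me1 summit in the list of the stage, whether or not its peak overlapped the member. In the class that kept both marks the shares were 48.3%, 47.5% and 46.4% (odds ratios 1.17, 1.22 and 1.23, adjusted p = 1.01e-12, 5.13e-20 and 7.48e-21 by two-sided Fisher's exact test). Among the other deactivated peaks, the shares were 58.7% at aNPC for those that lost both marks, and 51.6% at aNPC and 52.2% at eA for those that lost H3K4me1 by lA. The members were not tested against these. Pooled over quintiles of the aNPC H3K27ac list, the odds ratios of the members against the class that kept both marks at 200 bp were 1.01, 0.984 and 0.938 (p = 0.778, 0.512 and 0.00686 by the Mantel-Haenszel chi-square test). Within 500 bp, 85.0%, 85.2% and 87.6% of the members had such a summit, with odds ratios of 1.70, 1.82 and 2.22. Pooled in the same way, the odds ratios were 1.28, 1.26 and 1.40 (p = 9.39e-15, 1.02e-12 and 5.63e-23 by the Mantel-Haenszel chi-square test). The difference in summit distance thus held at a like height of H3K27ac for 500 bp and not for 200 bp. The members' H3K4me1 peaks were also narrower, as given above. The part of width, or of the number of nearby H3K4me1 peaks, in this was not tested.

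The share of sites that kept H3K4me1 was set beside the height of either mark in aNPC. The peaks with H3K27ac in aNPC alone and H3K4me1 in aNPC were ranked into quintiles. By aNPC H3K4me1, 33.8% of the lowest quintile were members (32.3–35.3), then 52.7%, 64.4% and 72.6%, and 82.3% of the highest quintile (81.1–83.5). By aNPC H3K27ac, the shares went from 55.5% (53.8–57.2) to 69.5% (68.0–71.0). Loss of H3K4me1 in both eA and lA was found in 33.6% of the lowest and 2.09% of the highest quintile by H3K4me1. Within each tertile by H3K27ac, the peaks with H3K4me1 above the median held more members than those below, at 70.6% against 46.4%, 74.8% against 46.4% and 79.1% against 50.6% from the lowest to the highest tertile. Over 1 kb from later H3K27ac, the quintiles by H3K4me1 ran from 31.3% to 81.4%. A low H3K4me1 peak in aNPC is also nearer to the calling threshold, so these shares are a description of called peaks, and a true loss and a drop under the threshold cannot be told apart.

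**Figure D3:**
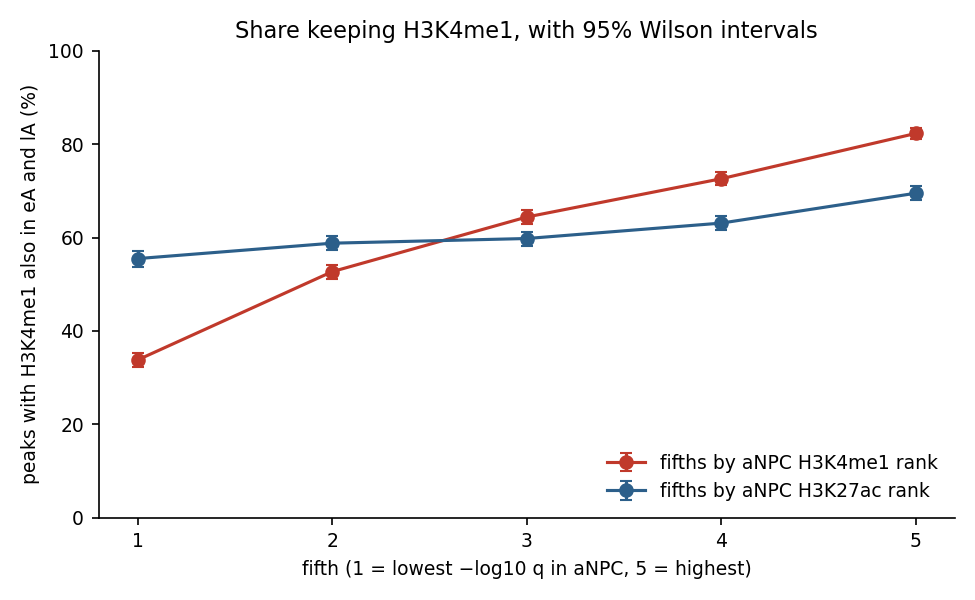
Share of peaks (percent, with 95% Wilson intervals) that had H3K4me1 also in eA and lA, among peaks with H3K27ac in aNPC only and H3K4me1 in aNPC, in quintiles by the rank of either mark in aNPC. The line by H3K4me1 climbs from 33.8 to 82.3 and that by H3K27ac from 55.5 to 69.5.

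The H3K4me1 ranks were also read by the height of aNPC H3K27ac. From the lowest to the highest quintile of the aNPC H3K27ac list, the median H3K4me1 rank of the members in aNPC was 70.0%, 72.8%, 76.0%, 80.2% and 84.4%. At lA it was 64.4%, 63.1%, 62.9%, 63.3% and 69.5%, with 360 members in the highest quintile. At each of these heights the peaks that kept both marks were above the members at lA, between 82.6% and 84.4%.

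Some members lay close together. Another member lay within 5 kb of 31.9% of them and within 50 kb of 66.0%. At the stitching distance commonly used to join enhancers, which lies between these, 4850 (41.2%) had a neighbour, and 24 groups linked in this way held 5 or more. The share was 13.7% for the 2243 peaks that lost both marks and 62.5% for the 30351 that kept them, and such shares grow with the size of a class, so they were not tested. The largest group had 9 members in 50.5 kb of chromosome 2 (37673323 to 37723772), assigned to Dennd1a, a regulator of Rab proteins in endocytosis. This stretch held 13 H3K27ac peaks at aNPC, 2 at eA and 1 at lA, where Dennd1a as a whole had 38, 35 and 29, with 18 peaks of eA and 17 of lA that lacked an aNPC counterpart. The next largest group had 7 members in 34.8 kb at Atxn7l1 (chromosome 12, 33870067 to 33904902), with 9, 2 and 5 H3K27ac peaks. Smaller groups at Mpped2 and Scarb1 were chosen after their values were seen. A group of 6 members at Mpped2 (chromosome 2, 106555311 to 106570746) made up all 6 aNPC H3K27ac peaks there, with 0 at both later stages. At Scarb1 (chromosome 5, 125789043 to 125814078), the receptor for high-density lipoprotein, 6 of 8 aNPC peaks were members, with 0 peaks at eA and 1 at lA. The members in all these stretches have no later H3K27ac peak by the rule, so the lower counts at eA and lA follow in part from the choice.

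Through the nearest coding start site, 8434 members (71.7%) were assigned to 4416 genes, which are 20.6% of the 21418 autosomal coding genes. Of these genes, 2575 had 1 member, 1566 had 2 to 4, 239 had 5 to 9 and 36 had 10 or more. The median over all coding genes was 0 members. Auts2, a transcriptional regulator of neural development, had 25 members, and its H3K27ac peaks numbered 67, 27 and 32 at aNPC, eA and lA. Kirrel3, an adhesion molecule of synapses, had 24 members and 68, 28 and 34 peaks. Both genes had fewer peaks in eA than in aNPC and slightly more again in lA. Of their aNPC peaks, 46 at Auts2 and 42 at Kirrel3 had no later H3K27ac, members included. Genes were ranked by members, which have no later H3K27ac peak by the rule, so lower later counts follow in part from the choice.

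The other genes with the most members had between 13 and 16 each. Opcml, a neural cell adhesion molecule, had 15 members and 62, 40 and 51 peaks at the 3 stages. Sema5a, an axon guidance semaphorin, had 13 members and 45, 16 and 11 peaks. Trpm3, a cation channel, had 14 members and 42, 16 and 19 peaks. Pdzrn4 had 13 members and 35, 9 and 10 peaks. At Rbms3, an RNA-binding protein, 13 members stood beside later peaks elsewhere in the gene, with 42, 31 and 50 peaks, and 30 of those in lA had no counterpart in aNPC. Cdkal1, Frmd4a, Dennd1a, Ptprm and Pde10a completed the list. Gene length was not corrected for.

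**Figure D4:**
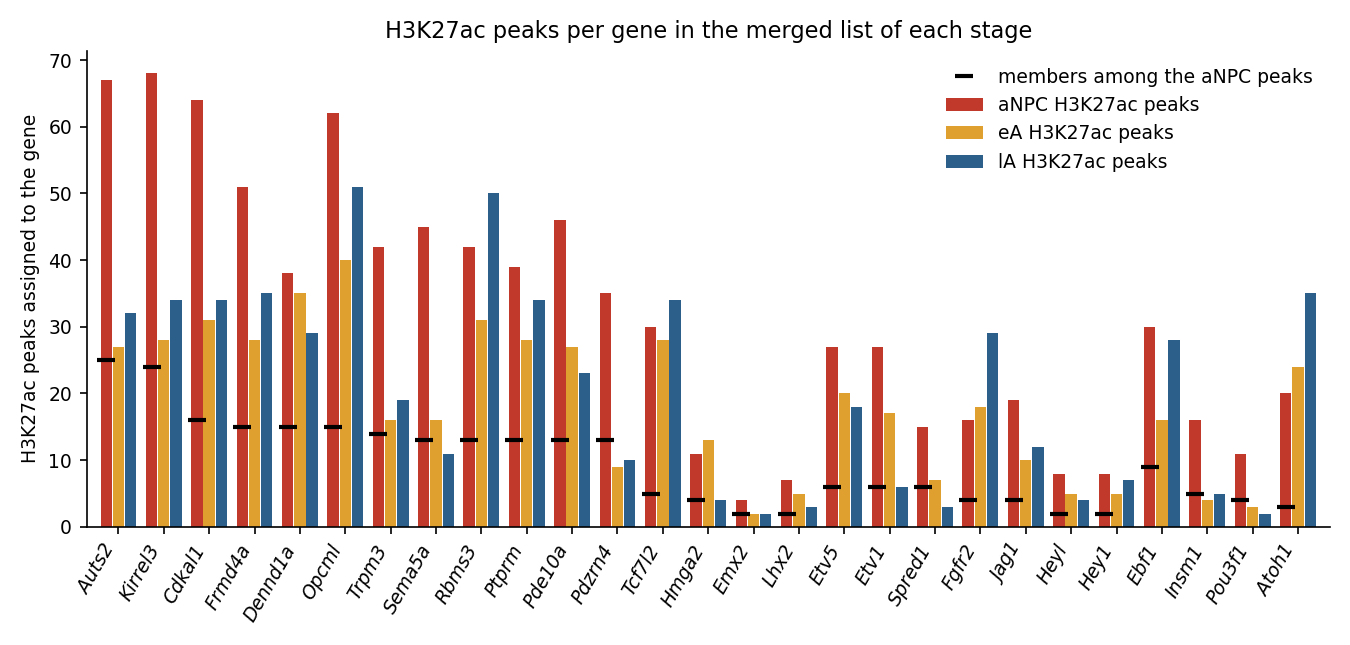
H3K27ac peaks assigned to each named gene in the merged lists of aNPC, eA and lA (bars, counts) and the number of members among the aNPC peaks (black marks). Auts2 and Kirrel3 have the most members (25 and 24), and Etv1, Spred1, Insm1 and Pou3f1 go from 27, 15, 16 and 11 peaks in aNPC to 6, 3, 5 and 2 in lA, while Atoh1 and Fgfr2 go up in number. At Etv1, Spred1, Insm1 and Pou3f1, 15, 11, 10 and 7 aNPC peaks had no later H3K27ac, members included. Genes were named for their members, which by the rule have no later H3K27ac peak.

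EGF and FGF-2, which maintain aNPC, act through receptor tyrosine kinases, the ETS factors Etv1, Etv4 and Etv5 are induced by them, and Spred and Dusp proteins feed back on the MAP kinase pathway. Of the 24 genes of this list, 12 (50%) had a member, beside 20.6% of all coding genes, and 10 (41.7%) had 3 or more, beside 4.21% of all coding genes. The list's median was 0.50 members. Over the whole list, 13 genes had fewer H3K27ac peaks in lA than in aNPC, 10 had more and 1 had as many. Etv1 had 6 members, and its H3K27ac peaks numbered 27, 17 and 6 at aNPC, eA and lA. Etv5 also had 6, with 27, 20 and 18 peaks, and Etv4 had 3, with 9, 4 and 3. Spred1 had 6 members and 15, 7 and 3 peaks. Dusp6, the phosphatase of ERK, had 3 members and 10, 4 and 3 peaks. The receptor Fgfr2, with 4 members, had 16, 18 and 29 peaks. Members were only part of the aNPC peaks without later H3K27ac. Those numbered 15 at Etv1, 11 at Etv5, 7 at Etv4, 11 at Spred1, 7 at Dusp6 and 5 at Fgfr2. H3K27ac at the promoter was present at 23, 23 and 22 of the 24 genes at aNPC, eA and lA, and Etv4 was the gene with a promoter peak in aNPC alone.

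The Etv5 member printed above spans 1436 bp with a −log10 q of 79.8, at rank 90.6% of the aNPC H3K27ac list. Its H3K4me1 rank was 70.3%, 73.8% and 80.8% at aNPC, eA and lA, with the nearest later H3K27ac peak 2338 bp away. The Etv1 member printed above was at rank 84.7% for H3K27ac in aNPC and 42388 bp from later H3K27ac. Its H3K4me1 rank was 91.1%, 92.3% and 62.0%. At Spred1 the printed member had H3K4me1 ranks of 89.9%, 86.2% and 40.4%. Other members were less isolated, since those at Etv5 of −log10 q 47.3 and 19.5 lay 40 and 78 bp from an eA H3K27ac peak.

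Factors of neuronal fate also held members. Proneural and early neuronal factors, which drive precursors toward neurons, had a member at 16 of 27 genes (59.3%, beside 20.6% of all coding genes), and 7 (25.9%, beside 4.21%) had 3 or more. The list's median was 1.00 member. Of the 27 genes, 13 had fewer H3K27ac peaks in lA than in aNPC, 9 had more and 5 had as many. Insm1 had 5 members and 16, 4 and 5 H3K27ac peaks at aNPC, eA and lA. Pou3f1 had 4 members and 11, 3 and 2 peaks. Ebf1, with 9 members, had 30, 16 and 28 peaks. Atoh1, a proneural factor with 3 members, had 20, 24 and 35, and Myt1l, also with 3, had 32, 29 and 36. The aNPC peaks without later H3K27ac, members included, numbered 10 at Insm1, 7 at Pou3f1, 15 at Ebf1, 6 at Atoh1 and 11 at Myt1l. The only aNPC H3K27ac peak of Neurod1, a neuronal differentiation factor, was a member, as were those of Neurod4 and of Tbr1, and none of these genes had an H3K27ac peak in eA or lA. In this list 16, 12 and 8 genes had an H3K27ac promoter peak at aNPC, eA and lA, while H3K4me1 was at the promoter of 24, 24 and 21. The Ebf1 member printed above had H3K4me1 ranks of 83.2%, 48.1% and 84.9%. The Insm1 member printed above had H3K4me1 ranks of 98.8%, 88.2% and 83.0%, and an lA H3K27ac peak began 15 bp from it.

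Genes of synapse and excitability had a member at 12 of 22 (54.5%, beside 20.6%), with a median of 1.00, and 6 (27.3%, beside 4.21%) had 3 or more. Of the 22 genes, 6 had fewer H3K27ac peaks in lA than in aNPC, 11 had more and 5 had as many. Syt1, the calcium sensor of synaptic vesicles, had 4 members and 11, 2 and 2 H3K27ac peaks. Of its 11 aNPC peaks, 10 had no later H3K27ac, the 4 members among them. A member of 185 bp lay at its promoter, where H3K4me1 ranked at 96.8%, 84.5% and 99.0% at aNPC, eA and lA. An eA H3K27ac peak lay 465 bp from this member. Nlgn1 had 6 members and 26, 21 and 19 peaks, and Nrxn3 had 5 and 14, 12 and 14, both coding for synaptic adhesion proteins. In the oligodendrocyte lineage list, 11 of 17 genes (64.7%, beside 20.6%) had a member and 4 (23.5%, beside 4.21%) had 3 or more. Of the 17, 9 had fewer H3K27ac peaks in lA than in aNPC, 4 had more and 4 had as many. Sox6 had 9 members and 44, 39 and 46 peaks, and Sox5 had 8 and 43, 25 and 39, both SoxD factors that are also expressed in neural precursors. Nkx2-2 had 3 members, with 7, 2 and 1 H3K27ac peaks at aNPC, eA and lA. Nkx6-2, a homeobox factor also with 3, had 8, 11 and 12. The Nkx2-2 members stood between 16684 and 27131 bp from eA H3K27ac and had H3K4me1 at ranks of 94.9% and, for the other 2, 72.9% in lA.

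In the Notch pathway, which keeps precursors undifferentiated, 9 of 18 genes (50%, beside 20.6%) had a member and 1 (5.56%, beside 4.21%) had 3 or more. Of the 18, 8 had fewer H3K27ac peaks in lA than in aNPC and 8 had more. The gene with the most members was the ligand Jag1, with 4 members and 19, 10 and 12 H3K27ac peaks. The target genes Hey1 and Heyl had 2 members each. Genes of neural progenitor identity had a member at 7 of 18 (38.9%, beside 20.6%), and 2 (11.1%, beside 4.21%) had 3 or more. Of the 18, 7 had fewer peaks in lA than in aNPC and 8 had more. Tcf7l2, a Wnt effector, had 5 members and 30, 28 and 34 H3K27ac peaks, Hmga2 had 4 and 11, 13 and 4 peaks, and Lhx2 and Emx2 had 2 each. Pax6 and Nes had no member. The Hmga2 member printed above had H3K4me1 at ranks of 99.8%, 99.9% and 98.2%.

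Astrocyte genes had a member at 9 of 23 (39.1%, beside 20.6%), among them Nfib with 6 and Nfia with 5, the NFI factors of gliogenesis, and 2 (8.70%, beside 4.21%) had 3 or more. Of the 23, 6 had fewer H3K27ac peaks in lA than in aNPC and 15 had more. All H3K27ac peaks numbered 60, 46 and 49 for Nfib and 42, 55 and 48 for Nfia. Of the aNPC peaks, 20 at Nfib and 14 at Nfia had no later H3K27ac, members included. S100b, a calcium-binding protein of astrocytes, had 2 members, at −464 and 269 bp from its start site. Its promoter had H3K27ac in aNPC alone and H3K4me1 at each stage, at ranks of 82.6%, 83.2% and 90.6% at the upstream member. Of the Wnt, BMP and Hedgehog components, 14 of 30 (46.7%, beside 20.6%) had a member, led by Fzd1 with 6 and Wnt5a with 5, and 4 (13.3%, beside 4.21%) had 3 or more. Of the 30, 10 had fewer peaks in lA than in aNPC and 17 had more. Cell cycle genes had a member at 7 of 25 (28.0%, beside 20.6%) and none had 3 or more, and 13 of the 25 had fewer peaks in lA than in aNPC and 9 had more. Over all coding genes 20.6% had fewer and 32.8% more, with the others at equal numbers, and among the 4416 genes with a member, which by the rule have an aNPC peak without a later counterpart, 56.0% had fewer and 32.5% more. Of the lists of other cells, the endothelial one had a member at 5 of 8 genes (62.5%, beside 20.6%), and 1 of the 8 had 3 or more (beside 4.21%). Its genes had fewer peaks in lA than in aNPC at 2 and more at 3. Members were found at 3 of 9 mesenchymal genes (33.3%), of which list 7 genes had more peaks in lA and none fewer, at 2 of 13 pluripotency genes (15.4%), with 4 more and 2 fewer, and at 0 of 7 microglia and blood genes, with 2 fewer and none more. The lists differ in gene length and in the number of aNPC peaks, so no list is called particular, and with lists of this size the count rests on few genes.

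Promoters of the genes near members were examined next. Among the 4198 genes with a distal member, 2709 (64.5%) had H3K27ac at a promoter in aNPC, and 2271 of these (83.8%, 82.4–85.2) had it in eA and lA too. Over all coding genes with a promoter peak in aNPC, 89.4% did (88.8–90.0). Of the 416 genes with a peak that lost both marks and no member, 280 had an aNPC promoter peak and 85.4% of these (80.7–89.0) kept it. H3K27ac peaks of eA or lA with no counterpart in aNPC were assigned to 80.7% of the genes with a distal member and to 91.9% of the 901 genes with 3 or more members, beside 76.9% of the genes with a peak that lost both marks and no member and 50.6% of all coding genes. The number of peaks per gene was not matched between these sets, and its part was not tested.

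The 12 distal members of the highest −log10 q in aNPC were also listed. At rank 99.1% stood a peak of 703 bp at chromosome 4, 132070118 to 132070820, −4053 bp from the start site of Sesn2, a stress-induced regulator of mTORC1. It lay 43 bp from an eA and 66 bp from an lA H3K27ac peak. The next, at rank 97.8%, lay −5973 bp from the start site of Dntt, a DNA polymerase of lymphocytes, and here all 5 aNPC H3K27ac peaks had no later counterpart, with 0 peaks in eA and in lA. Its H3K4me1 ranked at 96.3%, 93.1% and 90.9%. The 2 named members of Lmf1, a lipase maturation factor, lay in its exons at ranks of 97.3% and 93.7% over the same H3K4me1 peak. A member in an intron of Ern1, the IRE1 sensor of endoplasmic reticulum stress, ranked at 95.4% and was 44719 bp from eA and 35015 bp from lA H3K27ac. The others of the 12 lay at Nup62, Rpn1, 1700108M19Rik, Morn3, Ankrd45, Abtb2 and Gtl3. Among them H3K4me1 in lA ranged from rank 6.23% at Ankrd45 to 95.9% at Rpn1.

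Motif letters were compared between members and both other classes. Around the summits outside promoters, the median GC content was 47.5% in members, 47.0% in peaks that lost both marks and 50% in those that kept them, with 2.31, 2.14 and 4.48 CpG per window. Against the class that kept both marks, 8 of the 16 motifs differed, and against the class that lost both, 2 did (two-sided Fisher's exact test, adjusted over 32 tests). The second class is smaller, at 2181 windows against 25408, so the counts are not comparable. The ETS letters CAGGAAGT, read by Etv factors, were in 2.55% of the member windows (2.28–2.86), 1.85% of those that kept both marks (odds ratio 1.39, adjusted p = 1.15e-04, Fisher's exact test) and 1.54% of the windows 5 kb from members. In peaks that lost both marks the share was 3.39% (2.71–4.24), and the difference from members did not pass (odds ratio 0.747, adjusted p = 0.0802, Fisher's exact test). It passed with 500 bp windows (0.745, adjusted p = 0.00147, Fisher's exact test) and with promoter peaks included (0.731, adjusted p = 0.0451, Fisher's exact test). The E-box CAGATG, read by proneural factors, was found in 19.8% of peaks that lost both marks, 16.8% of members (odds ratio 0.821, adjusted p = 0.00420, Fisher's exact test) and 14.7% of peaks that kept both (odds ratio 1.17, adjusted p = 3.29e-06, Fisher's exact test).

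The SOX letters CATTGT were in 11.7% of the members and 9.06% of the peaks that kept both marks (odds ratio 1.33, adjusted p = 1.54e-13, Fisher's exact test), with 11.6% in the windows 5 kb from members. The GC box GGGGCGGGG, a site of SP factors, was in 0.430% against 1.09% (odds ratio 0.391, adjusted p = 5.38e-10, Fisher's exact test). The TEAD letters GGAATGT, read by the effectors of Hippo signalling, were in 3.23% of the members and 2.20% of the peaks that lost both marks (odds ratio 1.48, adjusted p = 0.0315, Fisher's exact test). The NFI letters TTGGCA were in 13% of the members and 11.6% of the class that kept both marks (odds ratio 1.14, adjusted p = 7.29e-04, Fisher's exact test), and TAATTA in 4.11% and 3.0% (odds ratio 1.39, adjusted p = 8.21e-07, Fisher's exact test). CTTTGT and the EGR letters GCGTGGGCG also differed from the class that kept both marks. The EGR letters stood in only 3 of 11390 member windows and 35 of 25408 windows of that class. No difference passed for CAGCTG, AP-1 (TGACTCA), CRE (TGACGTCA), RUNX, the POU octamer (ATGCAAAT), STAT (TTCCNGGAA) and RBPJ (GTGGGAA) in these windows. Several of these calls moved with the window or the pooling. With 500 bp, AP-1 (odds ratio 0.826), CRE (0.615), RUNX (1.11), the POU octamer (1.51) and STAT (0.797) differed from the class that kept both marks, and CAGCTG (1.13), CTTTGT (1.12) and TTGGCA (1.30) from the class that lost both. With promoter peaks included, RUNX (1.18) and the POU octamer (1.41) also differed from the class that kept both marks.

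**Figure D5:**
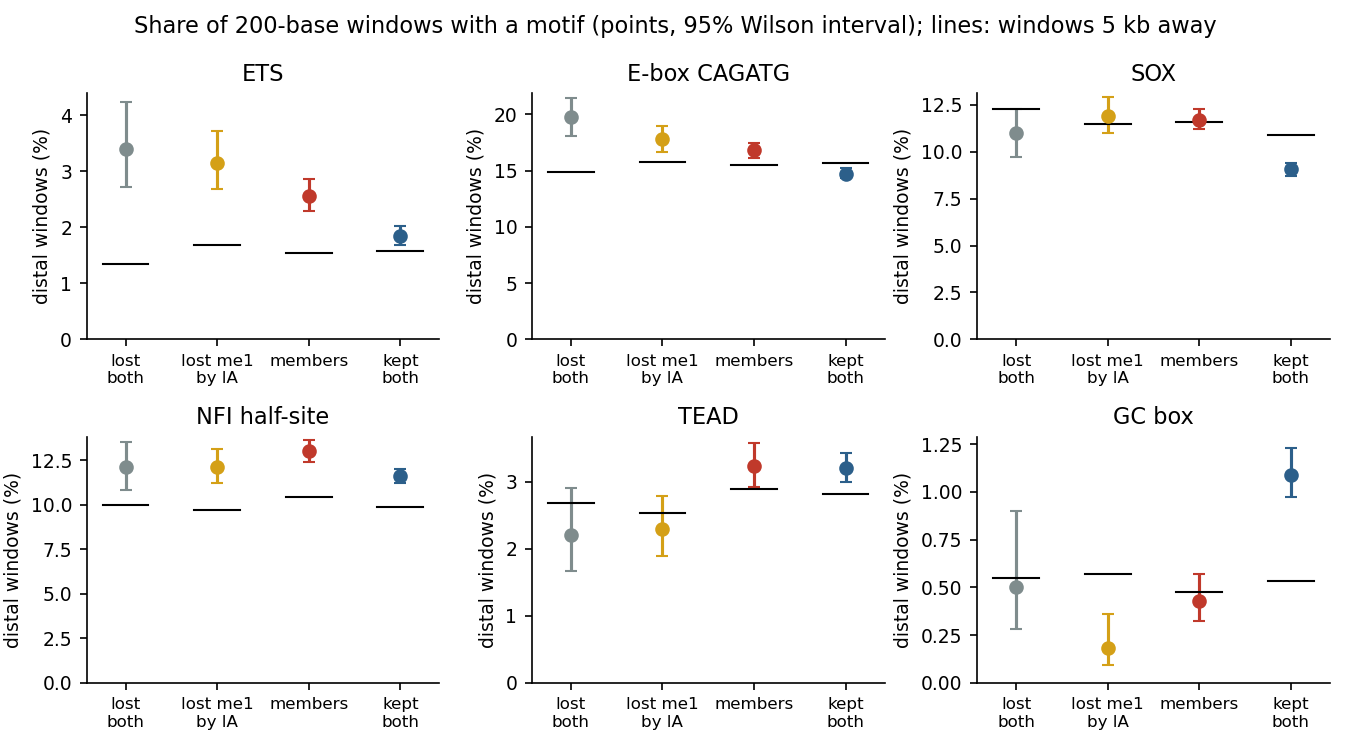
Share of 200-base windows around aNPC H3K27ac summits outside promoters that hold the letters of 6 motifs (percent, points with 95% Wilson intervals), by class, with the share in windows 5 kb to either side as lines. ETS and CAGATG are at 3.39 and 19.8 in peaks that lost both marks, 2.55 and 16.8 in members and 1.85 and 14.7 in peaks that kept both.

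The classes also differ in GC content and H3K27ac height. Pooled over steps of GC content, 5 motifs differed from the class that kept both marks, and pooled over quintiles of the aNPC H3K27ac list 3 did. ETS, SOX and the GC box passed both ways, with odds ratios of 1.38, 1.14 and 0.663 by GC content and 1.28, 1.21 and 0.521 by height. For CAGATG the value by height was 1.09 and did not pass (adjusted p = 0.0584, Mantel-Haenszel chi-square test). TAATTA passed neither way, at 1.04 by GC content and 1.17 by height (adjusted p = 0.658 and 0.0758, Mantel-Haenszel chi-square test). The same held for EGR, at 0.343 and 0.354. CTTTGT turned to 0.982 by GC content and was 1.02 by height, and TTGGCA was 1.08 by GC content and turned to 0.965 by height, none of which passed. CAGCTG, which did not differ before, passed by GC content (1.15, adjusted p = 3.97e-04, Mantel-Haenszel chi-square test). Against the class that lost both marks, CAGATG passed both ways (0.814 and 0.834) and did not pass with 500 bp windows (0.938, adjusted p = 0.284 by Fisher's exact test), and TEAD did not pass by height (1.48, adjusted p = 0.0585, Mantel-Haenszel chi-square test).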

How the data were processed

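H3K27ac and H3K4me1 ChIP-seq peak lists of aNPC, eA and lA were used. After quality control in FASTQC, the authors kept reads that Bowtie placed at 1 position of mm9, pooled both replicates of each stage and mark in SAMtools (0.1.19 in the submitters' processing notes) and called peaks with MACS2 at default settings without input. The deposited lists give the fold, a ratio of reads at the summit over local background, and the −log10 q of each peak. Both served to rank or filter peaks of 1 list, and their values were not compared between lists. Ranks from lists of different stages are set side by side as places in lists of unequal length. Depth per sample is unknown. RNA-seq and knockdown samples were not analysed here, and 8 RNA-seq libraries had conflicting labels.

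Peaks of different lists were matched by an overlap of at least 1 bp. An H3K4me1 rank or width is that of the overlapping peak of the highest −log10 q. Summit distances were taken to the nearest H3K4me1 summit of the list, from any peak. Ranks are percentiles within a list. Positions came from GENCODE M1 on NCBIM37, the assembly of mm9, whose chromosome names and lengths contain all peaks. A peak was assigned to the gene of the nearest coding start site if its centre lay in a promoter, exon or intron, or was intergenic within 50 kb. Motif letters were matched exactly on both strands. CTTTGT and CATTGT differ in 1 letter and were counted apart. Fisher's exact tests were two-sided with Benjamini-Hochberg adjustment over 8 tests of position and H3K4me1 and over 32 motif tests. p-values under 1e-300 were set to 1e-300. Pooled odds ratios are Mantel-Haenszel values over strata. The overlap rule, motif search and adjustment were tested on simulated data. The tools were samtools 1.23.1, pysam 0.24.0, SciPy 1.17.1, NumPy 2.4.6 and matplotlib 3.10.9 under Python 3.11.15.

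Named genes were the 12 with the most members, those of the 12 distal members of the highest aNPC H3K27ac −log10 q, and up to 4 genes with at least 2 members per list of known genes, of which some are not reported here. Further genes of a list (Etv4, Dusp6, Neurod1, Neurod4, Tbr1, Myt1l, Pax6 and Nes) and the groups at Mpped2 and Scarb1 were named after their values were seen. The members, gene lists and motifs were chosen with earlier results of these data known.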

Additional observations from a re-analysis of the deposited data

Results flagged for a closer look

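Chromosome X was outside the rule, and its peaks were counted as data that no comparison used. Of 1815 aNPC H3K27ac peaks on chromosome X, 653 (36.0%, 95% Wilson interval 33.8–38.2) had no H3K27ac peak in eA and lA, and 212 (11.7%, 10.3–13.2) also had H3K4me1 at each stage. Among the peaks with H3K27ac in aNPC only, 32.5% (29.0–36.2) met the rule on chromosome X, against 42.1% on the autosomes. The difference was not tested.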

How the results depend on the processing

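The member count stayed within 1.5 times of 11768 under each alternative, from 7914 without later H3K27ac within 1 kb to 11833 where an overlap had to cover at least 50% of the peak. Members as a share of the peaks with H3K27ac in aNPC only moved from 42.1% to 34.1% with at least 50% of the peak covered, 32.7% with the summit inside the other peak, 39.2% without later H3K27ac within 1 kb, 47.7% and 45.5% where peaks under a −log10 q of 5 were dropped from the aNPC H3K27ac list and from every list, and 37.2% with lists of equal length. The promoter share was 6.82% within 1 kb of any start site, where the odds ratio against peaks that lost both marks was 1.33 and passed, and 1.48% over 1 kb from later H3K27ac. Genes with a member numbered 3901 to 5068. Promoters that kept H3K27ac were 82.1% with members within 20 kb. Ranked by fold, the median H3K4me1 rank was 75.2% in eA and 66.7% in lA, and the share above the middle of the list in eA, 76.6%, lay above that of peaks that kept both marks. Over 1 kb from later H3K27ac the median ranks were 70.6% and 60.1%, and with H3K4me1 lists cut to the aNPC length 66.9% and 50.8%. Pooled over H3K27ac height, the summit odds ratios were 1.01, 0.984 and 0.938, and at 500 bp 1.28, 1.26 and 1.40. With 500 bp windows, 13 motifs differed from the class that kept both marks and 5 from the class that lost both. By GC content 5 and by height 3 differed from the former and by height 1 from the latter, with CTTTGT at 0.982 and TTGGCA at 0.965. Another member lay within 5 kb of 31.9% and within 50 kb of 66.0%. The alternatives over 1 kb from later H3K27ac (for promoters, ranks and motifs), within 20 kb for promoters, on distal peaks, with lists cut to the aNPC length, and pooled over GC content or height were chosen after seeing the data. The cause of these moves was not tested.

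No paired analysis was possible because the replicates were merged before peaks were called, and leaving out a replicate could not be run. Depth is unknown and no input control was used, and an absent peak cannot be told apart from one under the calling threshold.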

Other observations

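Among the 378 promoter members, on 366 genes, 96 genes had no H3K27ac peak at any of their promoters in eA and lA. The promoter members of the highest −log10 q lay at Pck2, a mitochondrial enzyme of gluconeogenesis (rank 99.4% of the aNPC H3K27ac list), Chac1, a glutathione-degrading enzyme (96.9%), and Fut1, a fucosyltransferase (95.5%), followed by Uhrf1, a factor of maintenance DNA methylation (91.8%), and Nupr1, a stress-induced nuclear protein (88.5%). Fut1 and Nupr1 had no promoter H3K27ac in eA and lA, Chac1 had it in eA, and Pck2 and Uhrf1 had it at both stages. H3K4me1 at Fut1 ranked at 99.2%, 98.8% and 98.4% at aNPC, eA and lA, and at Nupr1 at 51.8%, 46.4% and 24.0%.

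Promoter members at Cit, a kinase of cytokinesis, Msh5, Afmid and Pif1, a DNA helicase, also stood among the 12 of the highest −log10 q and had promoter H3K27ac in aNPC alone. The 2 members at Cit had H3K4me1 ranks in lA of 83.6% and 55.3%.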
